A study of Rattus norvegicus with 12 samples.

Results

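The 5 circular RNAs (circRNAs) examined here come from 3 genes that encode kinases or a synaptic scaffold: a pair from Map4k5, a pair from Magi2, and 1 from Lmtk2. They were selected on measured values, as the circRNAs with these host genes in the study's list of circRNAs that passed a fold change of 1.5 and an unadjusted p below 0.05 between heroin and saline, and they are 5 of the 14145 circRNAs on the array. CircRNA was measured in the orbitofrontal cortex (OFC) of 12 male Sprague Dawley rats, which were 8 weeks old on arrival, on 1 array per rat with 3 rats in each of 4 groups. Heroin rats had a jugular catheter and self-administered heroin, at 0.03 mg/kg per infusion, for 6 h per day over 10 days, and saline rats had the same surgery and sessions with saline. Sucrose rats worked for chocolate sucrose pellets for 2 h per day over 10 days, and naive rats were handled and sat in the chamber for 2 h per day over 10 days with no protocol running; neither of these groups had surgery. All tissue was taken straight after the last session. The catheter and the longer sessions are therefore shared by the heroin and saline rats, and their part in any difference from sucrose or naive rats cannot be told apart from that of the infusions.

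CircRNAs are made when the end of an exon is spliced back to the start of an upstream or the same exon, and the closed ring that results is spared by RNase R, which digests linear RNA. Map4k5 belongs to the STE20 family of kinases and acts upstream of the JNK stress pathway. Lmtk2 is a membrane-anchored kinase of endosomes that binds myosin VI and a regulator of protein phosphatase 1. Magi2 is a membrane-associated guanylate kinase scaffold whose PDZ and WW domains hold receptors and neuroligin together at the synapse. The OFC, in which all were measured, represents the value of expected rewards and takes part in drug seeking.

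The probes are shown because they define what was measured: each is 60 bases long and was designed against a backsplice junction, and the circRNAs of a pair differ in 1 end of that junction. Capitals mark the longest stretch that the probes of a pair have in common.
rno_circRNA_013530 (Map4k5): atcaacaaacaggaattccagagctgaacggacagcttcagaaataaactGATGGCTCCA
rno_circRNA_013531 (Map4k5): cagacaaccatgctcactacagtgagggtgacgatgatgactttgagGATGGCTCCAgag
rno_circRNA_011179 (Magi2): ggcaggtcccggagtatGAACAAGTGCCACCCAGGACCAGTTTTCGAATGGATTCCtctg
rno_circRNA_011180 (Magi2): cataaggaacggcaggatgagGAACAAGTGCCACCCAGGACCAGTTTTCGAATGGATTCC
mmu_circRNA_39652 (Lmtk2): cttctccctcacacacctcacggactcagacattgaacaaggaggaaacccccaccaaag
In both pairs the bases before the capitals differ, and the capitals run to the 3′ end of a probe or close to it. The Map4k5 probes share 10 bases and the Magi2 probes share 39 of 60, so that a Magi2 probe can bind part of the other ring, and the part of such binding in the Magi2 values was not tested. Probes of different genes shared at most 8 bases in a row. The GC share was 43.3% and 51.7% for the Map4k5 probes, 53.3% for the Lmtk2 probe and 55% and 51.7% for the Magi2 probes, against a median of 45% (28.3% to 61.7%) over the 75 circRNAs of the study's list used here.

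The study's annotation classes all 5 as exonic and on the minus strand, and no source used here names the genome build of its coordinates. The circMap4k5 rings span 101622689 to 101630877 and 101626614 to 101630877 on chromosome 6, 8188 and 4263 bp of genome. They share the end at 101630877, which on the minus strand is where the ring's first exon starts, and their other ends lie 3925 bp apart. The circMagi2 rings span 11041527 to 11138975 and 11085107 to 11138975 on chromosome 4, 97448 and 53868 bp, share the end at 11138975, and differ at the other by 43580 bp. The circLmtk2 ring spans 687 bp, 14466620 to 14467307 on chromosome 12, and carries a mouse circRNA identifier. These spans cover introns as well as exons, so they are not the lengths of the RNA. RefSeq, on assembly GRCr8, places Map4k5, Lmtk2 and Magi2 on the same chromosomes and strand, with gene lengths of 92865, 81965 and 1483910 bp.

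The same annotation predicts 5 microRNAs for each ring. The circMap4k5 pair has 4 of its 5 in common and the circMagi2 pair all 5. RefSeq holds a mature sequence for 15 of the 16 different microRNAs. A pair predicted for both circMap4k5 rings is shown because it shares a seed, bases 2 to 8, in capitals.
rno-miR-494-5p: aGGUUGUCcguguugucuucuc
rno-miR-410-5p: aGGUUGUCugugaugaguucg
The complement of that seed, GACAACC, was searched on the printed strand and lies in the probe of rno_circRNA_013531, in 1 of the 75 listed probes. It does not lie in the probe of rno_circRNA_013530, which covers other bases of its ring. The circLmtk2 probe likewise holds the seed complements of its predicted rno-miR-6316 and rno-miR-1199-5p, each in 1 of the 75 listed probes. Such a match lay in the probes of 2 of the 5 members. MicroRNAs were not measured on these arrays, and a match of letters is a description only.

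Spots of all 5 circRNAs were well above background on all 12 arrays. The circMap4k5 spots were 5.03 to 23.1 times (rno_circRNA_013530) and 3.02 to 12.9 times (rno_circRNA_013531) their local background, the circLmtk2 spots 66.2 to 341 times, and the circMagi2 spots 68.5 to 184 and 85.3 to 180 times. The paper reports that its qPCR assay across the circLmtk2 backsplice junction gave no detectable amplification. It names no qPCR assay for a circRNA of Map4k5 or Magi2. The values of all 5 circRNAs here therefore rest on the array probes alone. All values below are background-subtracted intensities on the log2 scale after quantile normalisation over the 12 arrays, and a difference of 1 on this scale is a doubling. In OFC tissue, fewer cells of a type and less RNA per cell cannot be told apart.

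Both circMap4k5 rings were low on the saline arrays and at like levels in the other 3 groups. For rno_circRNA_013530 the saline arrays read 7.29, 7.11 and 6.54, while heroin arrays read 7.83, 7.93 and 7.76, sucrose arrays 7.88, 7.79 and 8.04, and naive arrays 8.09, 7.74 and 7.68. Every saline array lay below every array of the other groups, and those other groups overlapped one another. For rno_circRNA_013531 the saline arrays read 6.50, 6.63 and 6.00, the heroin arrays 7.15, 7.36 and 7.08, the sucrose arrays 7.24, 7.06 and 7.40, and the naive arrays 7.33, 7.17 and 6.99. Again the saline arrays were apart from all others, with saline 3 the lowest of the 12. Heroin minus saline, the difference that chose these circRNAs, was 0.86 (standard error 0.20, 1.82-fold) for rno_circRNA_013530 and 0.82 (0.19, 1.76-fold) for rno_circRNA_013531, and these are given as a description with no test. Heroin minus naive was 0.01 (95% interval -0.42 to 0.43) and 0.03 (-0.37 to 0.43), and saline minus naive was -0.86 (-1.28 to -0.43) and -0.79 (-1.19 to -0.38). Here and for the other members, intervals that involve heroin or saline arrays take no account of the choice of members on those arrays. They are a description and not a test. The spread among the saline arrays was wide for these rings, with an SD of 0.39 for rno_circRNA_013530 that exceeded the saline SD of 87.2% of circRNAs. Without saline 3, heroin minus saline was 0.65 and 0.63. Normexp background correction with an offset of 50 gave 0.69 and 0.53, and slide row as a block gave 0.56 and 0.69, so that 1 ring of the pair fell below 1.5-fold under each.

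**Figure D1:**
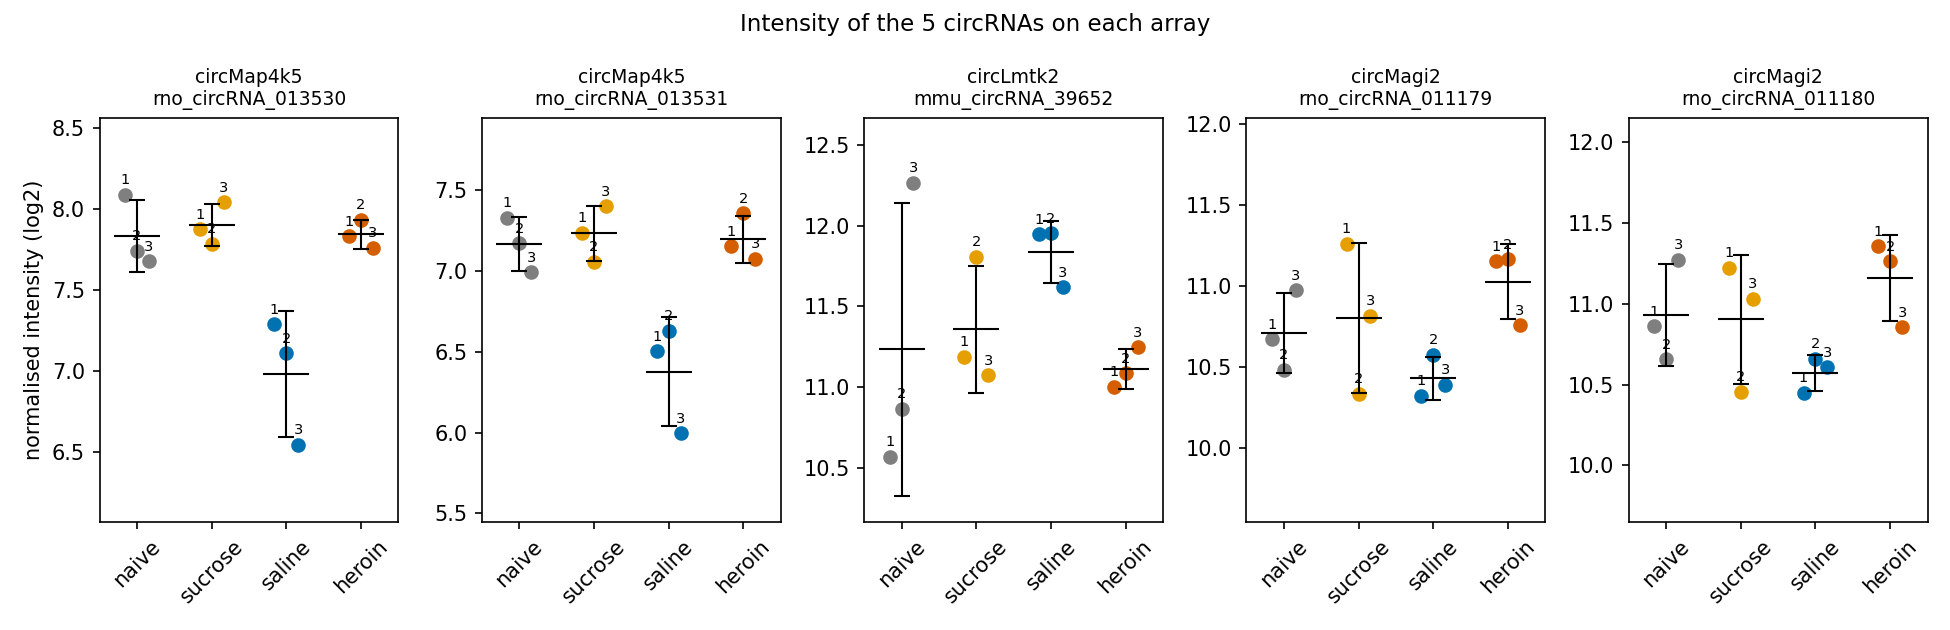
Normalised intensity (log2) of each circRNA on each of the 12 arrays, with points numbered by replicate, a horizontal bar at the group mean and error bars of 1 SD (n = 3 per group); every panel spans the same height on the log2 scale. The saline points lie below all others for both circMap4k5 rings, naive 3 is the highest point for circLmtk2 at 12.27, and the circMagi2 panels repeat each other's pattern.

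CircLmtk2 was the member with a lower value in heroin than in saline, and its naive arrays were spread more widely than those of nearly all circRNAs. Its heroin arrays read 11.003, 11.09 and 11.25 and its saline arrays 11.95, 11.95 and 11.62, with no overlap. Its sucrose arrays read 11.19, 11.81 and 11.08, and its naive arrays 10.57, 10.87 and 12.27. The naive arrays thus included both the lowest and the highest of the 12 values, 3.24-fold apart, and covered the range of all other groups. The naive SD of 0.90 was above that of 98.5% of circRNAs, whose median naive SD was 0.21. The scanner software gave an error of 10% to 10.2% of the intensity for the spots of every member. That figure was alike for dim and bright spots, and the technical part of the naive spread was not tested. Heroin minus saline was -0.73 (standard error 0.35, 1.65-fold lower), heroin minus naive was -0.12 (95% interval -0.88 to 0.64), and saline minus naive was 0.60 (-0.16 to 1.37). In the order of group means saline came first, then sucrose, naive and heroin, and each neighbour in that order overlapped the next.

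The circMagi2 rings had their highest group mean in heroin and their lowest in saline, with sucrose and naive arrays spread between and beyond. For rno_circRNA_011179 the heroin arrays read 11.15, 11.17 and 10.76, the saline arrays 10.32, 10.57 and 10.39, the sucrose arrays 11.26, 10.33 and 10.82, and the naive arrays 10.67, 10.48 and 10.97. For rno_circRNA_011180 the heroin arrays read 11.35, 11.26 and 10.85, the saline arrays 10.45, 10.66 and 10.61, the sucrose arrays 11.22, 10.46 and 11.03, and the naive arrays 10.86, 10.66 and 11.27. Heroin and saline did not overlap, but the naive and sucrose arrays overlapped both. Heroin minus saline was 0.60 (standard error 0.23, 1.51-fold) and 0.59 (0.22, 1.501-fold), close to the fold that chose them. Without heroin 1 these became 0.53 and 0.49, without heroin 2 they became 0.53 and 0.53, and without saline 1 they became 0.54 and 0.52, all below 1.5-fold. Heroin minus naive was 0.32 (95% interval -0.17 to 0.81) and 0.23 (-0.26 to 0.72), and saline minus naive was -0.28 (-0.77 to 0.21) and -0.36 (-0.85 to 0.13).

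Between heroin and saline 5 of the 5 circRNAs differed by more than 1.5-fold, as did 4.17% of the 13979 circRNAs tested, and 5 of 5 did not overlap, as for 14.7% of all, but the same contrast had chosen them and nothing is read from these counts. The number of all circRNAs past 1.5-fold also moved with the processing, from 583 here to 88 with normexp and 1701 with slide row as a block. Leaving out heroin 1, heroin 2 or saline 1 left 3 of the 5 past 1.5-fold, because the circMagi2 pair fell below it. In the study's test on its deposited log2 values, the members lay between 1.51-fold and 1.75-fold with unadjusted p from 0.00538 to 0.0439 (3 against 3 arrays, the methods' test, not an exact one). The nearest circRNA outside by fold was at 1.497-fold, and the nearest outside by p was at 0.052. All heroin arrays and saline 1 lay in row 1 of a slide and saline 2 and saline 3 in row 2. Heroin minus saline within row 1 was 0.56 and 0.69 for circMap4k5, -0.83 for circLmtk2 and 0.70 and 0.71 for circMagi2, each with 1 saline array.

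The authors' deposited log2 values, which follow the intensities before background subtraction, also had the saline arrays lowest for circMap4k5. There rno_circRNA_013530 had means of 7.23 ± 0.25 in saline, 8.04 ± 0.14 in heroin, 8.00 ± 0.14 in sucrose and 8.07 ± 0.18 in naive rats (SD, n = 3 each). For rno_circRNA_013531 the deposited means were 6.68 ± 0.27 in saline, 7.34 ± 0.15 in heroin, 7.46 ± 0.21 in sucrose and 7.40 ± 0.13 in naive rats. For circLmtk2 they were 11.85 ± 0.17 in saline, 11.12 ± 0.15 in heroin, 11.36 ± 0.39 in sucrose and 11.18 ± 0.88 in naive rats. The circMagi2 means in heroin and saline were 11.01 ± 0.25 and 10.42 ± 0.05 for rno_circRNA_011179, and 11.16 ± 0.32 and 10.56 ± 0.15 for rno_circRNA_011180. The saline values were the low ones for circMap4k5 in both versions of the data, and the wide naive spread of circLmtk2 was present in both. Both versions come from the same arrays, and heroin against saline had chosen the members. The likeness of the versions is therefore a description only.

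Against the naive rats the heroin arrays overlapped for all 5 circRNAs, so 0 of 5 were separate, where 24.8% of all circRNAs were. The saline arrays were separate from the naive arrays for 2 of 5, the circMap4k5 pair, against 26.7% of all circRNAs. These comparisons use the heroin and saline arrays that chose the members and share the naive arrays, the naive arrays lay on the other slide, and no test was made on them. As a description of these arrays, the saline group was the one apart from all others for circMap4k5, and for circLmtk2 no group was. For circMagi2 only the heroin and saline arrays were separate from each other. The choice of members favoured saline arrays unlike the heroin arrays, so nothing is read from these counts.

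**Figure D2:**
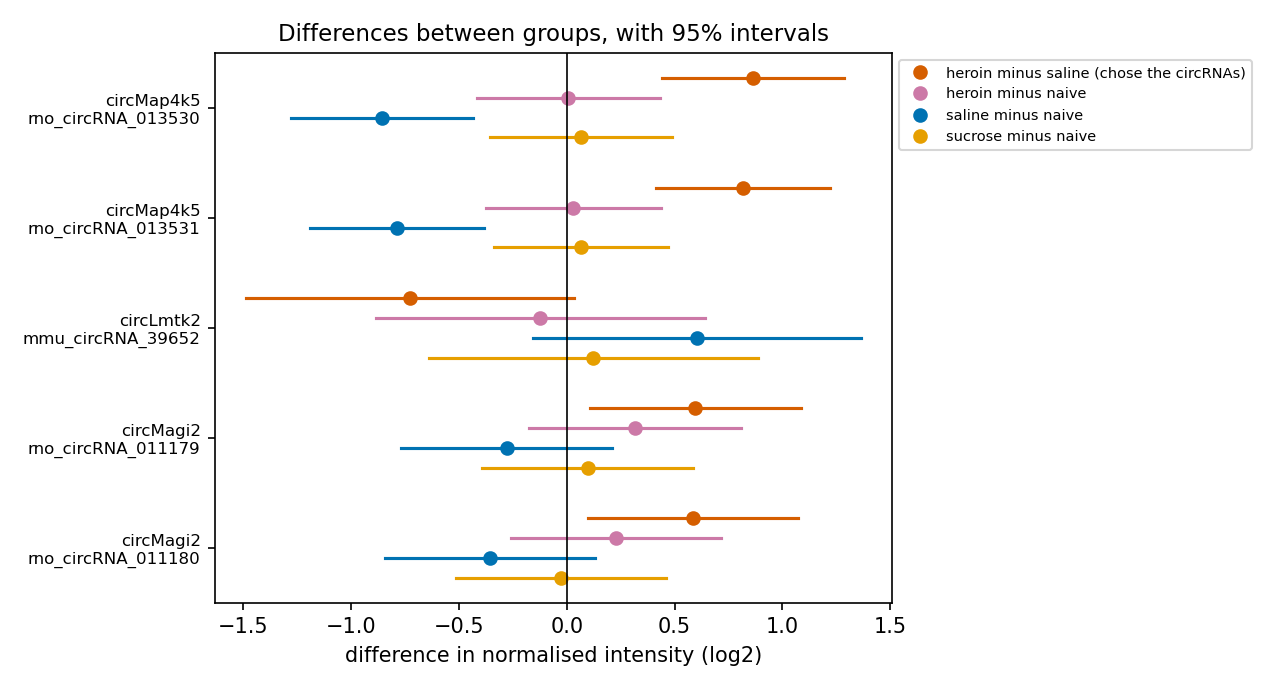
Differences between group means in normalised intensity (log2), 1 row of points per circRNA and contrast, with lines for the 95% interval from limma (3 arrays per group, spread shared over 4 groups). For circMap4k5 the heroin minus naive points sit at 0.01 and 0.03 while saline minus naive lies at -0.86 and -0.79, and all sucrose minus naive intervals include 0. Intervals that involve heroin or saline arrays take no account of the choice of members on those arrays and are not a test. The spread behind the sucrose minus naive intervals also drew on the heroin and saline arrays.

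Sucrose against naive was the comparison whose arrays had no part in choosing the members, and none of the 5 passed the test in it. The limma fit shared its spread over 4 groups, so its intervals and p-values drew on the heroin and saline arrays that chose the members. A fit of only the sucrose and naive arrays gave standard errors of 0.41 for circLmtk2, and 0.26 and 0.25 for circMagi2. The fit of 4 groups gave 0.35, 0.23 and 0.22. For circMap4k5 they were 0.19 and 0.19, against 0.20 and 0.19. No member had an adjusted p below 0.05 in either fit. Sucrose minus naive was 0.07 (95% interval -0.36 to 0.49) for rno_circRNA_013530 and 0.07 (-0.34 to 0.47) for rno_circRNA_013531, 0.12 (-0.64 to 0.88) for circLmtk2, and 0.10 (-0.39 to 0.59) and -0.03 (-0.51 to 0.46) for the circMagi2 pair. With limma and Benjamini-Hochberg adjustment over 13979 circRNAs their adjusted p ran from 0.886 to 0.969. Exact two-sided permutation tests of 3 against 3 arrays gave p = 0.7 for each circMap4k5 ring, 0.8 for circLmtk2, and 0.8 and 0.9 for circMagi2, in a design whose smallest possible p is 0.1. These permutation tests used the sucrose and naive arrays only. The intervals of the limma fit of 4 groups leave room for a 1.5-fold difference, 0.585 on this scale, in circLmtk2 and upward in rno_circRNA_011179. They do not in the circMap4k5 pair or rno_circRNA_011180, but that limit belongs to this fit alone. With slide as a block the circMap4k5 differences were 0.21 (standard error 0.28) and 0.24 (0.26), and that of rno_circRNA_011180 was 0.10 (0.32). Those standard errors leave room for a 1.5-fold difference upward in all 3. Members past the study threshold numbered 0 of 5 against 4.77% of all circRNAs, and members whose arrays did not overlap 0 of 5 against 13.4%. No circRNA on the array passed an adjusted p of 0.05 in limma here (0 of 13979, 0%) or in the methods' t-test after the same adjustment (0), while 1558 (11.1%), none of them a member, had an unadjusted p below 0.05. Without naive 3 the circLmtk2 difference was 0.64 (limma, unadjusted p = 0.0166, adjusted p = 0.229) and passed the study threshold, and it ranged from -0.21 to 0.64 as each array was left out. On the slide that held sucrose 3 and the naive arrays, sucrose 3 minus the naive mean was 0.21 and 0.24 for circMap4k5, -0.16 for circLmtk2, and 0.11 and 0.10 for circMagi2. The heroin minus saline difference less the sucrose minus naive difference, for which no test is given, was 0.80 and 0.75 for circMap4k5, -0.85 for circLmtk2, and 0.50 and 0.61 for circMagi2.

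Over all 12 arrays, which include the heroin and saline arrays on which both rings of a pair were chosen for a difference, the difference between the circMap4k5 values had an SD of 0.09, against SDs of 0.45 and 0.42 for the rings themselves, and both were on the same side of their own mean on 12 of 12 arrays. For circMagi2 the difference had an SD of 0.09 against 0.34 and 0.33, and the sides were the same on 11 of 12. Over the 6 sucrose and naive arrays, which the choice of members did not use, the circMap4k5 rings correlated at r = 0.91 (exact permutation p = 0.0194, adjusted p = 0.0972 over the 10 pairs of members; rho = 0.89, exact p = 0.0333, adjusted p = 0.167). The circMagi2 rings correlated at r = 0.94 (exact permutation p = 0.00556, adjusted p = 0.0556; rho = 0.94, exact p = 0.0167, adjusted p = 0.167). Neither pair passed the adjustment. Without the 2 arrays farthest from the median of the first ring, r was 0.79 for circMap4k5 and 0.996 for circMagi2 over 4 arrays. The other 8 pairs had r from -0.82 to 0.20, of which circLmtk2 gave the lowest, -0.72 and -0.82 with the circMap4k5 rings (exact permutation p = 0.0944 and 0.0528, adjusted p = 0.236 and 0.176, rho = -0.66 and -0.71). These arrays lay on 2 slides with 2 and 4 arrays each. No correlation within a slide was computed, so the part of the slide in these values was not tested.

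**Figure D3:**
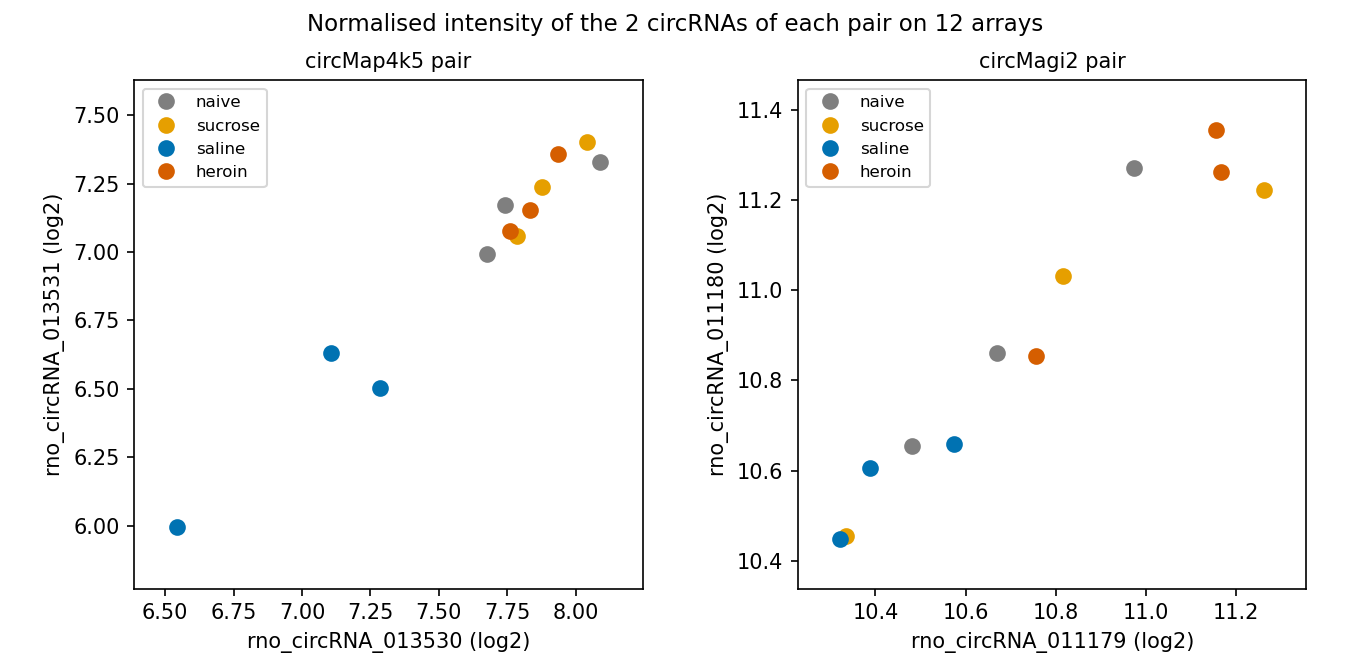
Each point is 1 of the 12 arrays, placed by the normalised intensity (log2) of the first ring of a pair on the horizontal axis and of the second on the vertical axis, with equal scales and colours for the 4 groups (3 arrays each). In the circMap4k5 panel the saline arrays lie apart at the lower left, and in the circMagi2 panel the groups other than heroin and saline mix along the same line.

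Among the 13278 other circRNAs well above background on all 12 arrays, the one most like each ring of a pair was the other ring of that pair, with r = 0.98 over 12 arrays for circMap4k5 and 0.97 for circMagi2. These correlations include the arrays that chose the members and describe likeness only. After its partner, rno_circRNA_013530 was most like rno_circRNA_001183 from Exoc6, a subunit of the exocyst that tethers vesicles to the membrane (r = 0.91), whose values were 0.87 for heroin minus saline and -0.87 for saline minus naive. The circMagi2 rings had the same next neighbours, the circRNAs of probes ASCRPR007144 (r = 0.95 and 0.96) and ASCRPR009077 (r = 0.96 and 0.96), for which the tables used here give no host gene. The 3 circRNAs most like circLmtk2 (r = 0.90 to 0.92) have no host name here either.

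Host genes are given here for 70 of the 75 listed circRNAs and for no others, so of 66 kinases, phosphatase subunits, scaffolds and receptors related to the 3 hosts, 6 could be found, with 12 circRNAs. All 12 had passed the same heroin against saline threshold. They are not separate genes, since 5 are rings of Anks1b and 3 of Grin2b. In sucrose against naive 10 were higher and 2 lower, where 48.4% of all circRNAs tested were higher. At an adjusted p below 0.05 there were 0 in limma, and 2 had an unadjusted p below 0.05, against 11.1% of all, with a median difference of 0.21 against -0.01 over all circRNAs tested. The spread in these limma tests again drew on the heroin and saline arrays. From Stk39, a STE20-type kinase that regulates chloride cotransporters, rno_circRNA_010912 had 0.78 for heroin minus saline, -0.72 for saline minus naive and 0.06 for heroin minus naive, values close to those of circMap4k5. For sucrose minus naive it had -0.23 (standard error 0.24, adjusted p = 0.72 in limma). From Ppp1r16b, a regulatory subunit of protein phosphatase 1, rno_circRNA_010393 had -1.05 for heroin minus saline and 0.30 (0.24, adjusted p = 0.634) for sucrose minus naive. Among 10 circRNAs of scaffolds and receptors, sucrose minus naive ran from -0.04 (rno_circRNA_016172 from Grik4, a kainate receptor subunit) to 1.02 (rno_circRNA_011734 from Grin2b, an NMDA receptor subunit, standard error 0.25, adjusted p = 0.323), the latter the only one of the 12 past the study threshold, which 4.77% of all circRNAs passed. The other with an unadjusted p below 0.05, named after its value was seen, was rno_circRNA_011733, also from Grin2b, at 0.51.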

How the data were processed

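The authors treated OFC RNA of 12 rats with RNase R, labelled it with Cy3, hybridised it to circRNA arrays and deposited the spot intensity as Feature Extraction (version 11.0.1.1) wrote it, with background subtracted. They also deposited log2 values of the same arrays, whose background treatment no source used here states. Per array, these correlated at 0.9989 to 0.9997 with the log2 median signal before background subtraction. With the background-subtracted signal they correlated at 0.978 to 0.983. Members, gene lists and tests were chosen with earlier results of these data known: the members are the listed circRNAs of 3 host genes, and the other circRNAs named are the extremes of fixed host groups and the 3 most like each member.

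Log2 intensities were quantile-normalised over 12 arrays, without 9 outlier spots, none of a member. The fit held the 13979 of 14145 circRNAs that were present (well above background) on 3 or more of 12 arrays, all 5 members among them. They were fitted with limma (version 3.58.1, R 4.3.3) as 4 group means with 1 shared spread, and the fit was tested on simulated data. Exact permutation tests used SciPy. Per array, 95.7% to 98.6% of probes exceeded background, none was saturated, and the number of arrays limits the precision. Slide and row were checked as batches: heroin, saline, sucrose 1 and sucrose 2 shared a slide. Cell type markers and protein positions were not analysed here, since host names and proteins were not at hand.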

Additional observations from a re-analysis of the deposited data

How the results depend on the processing

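Each heroin minus saline difference kept its direction under all 13 alternatives of processing and test and all 6 omissions of an array. The members were chosen for this difference. The changed filters, the fit of only 2 groups, the methods' t-test, the intensity trend, and the replicate and slide blocks could not move its estimate. Nothing is therefore read from the kept direction. The count of members past 1.5-fold, 5, fell to 4 with normexp (rno_circRNA_013531 at 0.53) and with slide row as a block (rno_circRNA_013530 at 0.56), and ran from 3 to 5 as arrays were left out. Over all circRNAs, the number past 1.5-fold between heroin and saline, 583, was 172 without background subtraction, 88 with normexp, 150 on the deposited values, 1701 with slide row as a block, and 564 to 1054 as arrays were left out. The number past the study threshold between sucrose and naive, 667, was 319, 149 and 285 in the first 3 of these settings, 254 by the methods' t-test, 92 by that test on the deposited values, and 444 to 1327 as arrays were left out. Sucrose minus naive stayed without a member at an adjusted p of 0.05 under all 19, and the count past the study threshold ran from 0 to 1 as arrays were left out. The number of all circRNAs at an adjusted p below 0.05 in that contrast, 0, was 1 without background subtraction and 1 with an intensity trend. It was 2 with normexp, 3 on the deposited values in limma, 11 without sucrose 3 and 0 in the other settings. With a replicate block 5 members lay past 1.5-fold and 0 past the study threshold in sucrose against naive, no call changed, and rno_circRNA_013530 had 0.86 and 0.07. Deviations of each array from its group mean were correlated between arrays of different groups, over circRNAs well above background on all arrays. Same-numbered arrays gave r from -0.31 to 0.36 and arrays of other numbers r from -0.39 to 0.37. These ranges gave no sign that the numbers pair the rats, but they cannot exclude it. Sucrose minus naive, near 0 in all members, changed sign in some settings, and the cause was not tested. Without background subtraction it was -0.0655 for rno_circRNA_013530, -0.0251 for rno_circRNA_011179 and 0.00871 for rno_circRNA_011180, and by normexp -0.0588, -0.0244 and 0.00814. On the deposited values, in limma and the methods' t-test alike, it was -0.0711 for rno_circRNA_013530 and -0.0229 for rno_circRNA_011179. With slide or slide row as a block it was -0.16 for circLmtk2 and 0.10 for rno_circRNA_011180. As each array was left out it ran from -0.0142 to 0.19 and -0.0182 to 0.15 for circMap4k5, -0.21 to 0.64 for circLmtk2, and -0.13 to 0.33 and -0.19 to 0.20 for circMagi2. With 75th percentile scaling, rno_circRNA_011180 correlated at -0.0348 and -0.0393 with the circMap4k5 rings, where it had 0.05 and 0.11. Leaving out each array in turn was not run for the correlations.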
